A study of Mus musculus with 8 samples.

Results

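The Brd and NM-Brdi effects were set against each other gene by gene in MC3T3-E1, a line of mouse calvarial pre-osteoblasts that can be driven towards osteoblasts in culture. The quantity reported is the effect difference, which is the log2 change of Brd against control minus the log2 change of NM-Brdi against NM-DMSO. All 8 libraries of the series enter it, as 4 groups of 2 libraries named by their titles, and 17038 of the 28901 genes in the count table passed the filter on low counts. A positive effect difference means that the Brd change lay above the NM-Brdi change, and a negative one that it lay below.

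The groups are Brd, control, NM-Brdi and NM-DMSO, and every label gives the same line and cranial bone as its source. The series text describes cells given 10 µM I-BRD9, a small molecule that blocks the bromodomain of BRD9, or the solvent DMSO. It also describes an osteogenic medium holding ascorbic acid, a glycerol phosphate and 0.1 µM dexamethasone. No label explains NM, ties the osteogenic medium to particular libraries, or gives the agent and duration for Brd and control. Differences in medium, day or sequencing run between the Brd and control libraries on one side and the NM libraries on the other cannot be told apart. Whether the libraries of a group are separate cultures is not stated, so the p-values cover the spread among these libraries alone, and that spread may be technical.

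BRD9 is a bromodomain subunit of the non-canonical BAF complex, a chromatin remodeller that slides or evicts nucleosomes and binds acetylated histones. In osteoblast differentiation the transcription factors Runx2 and Sp7 act in turn, and Wnt/β-catenin signalling favours this course, leading to alkaline phosphatase activity, collagen deposition and mineral. Proliferation usually slows as the matrix is laid down.

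The NM-DMSO libraries stood apart from each other. Between them 1250 genes differed by more than 2-fold, against 26 to 91 genes within the other groups. Reads on processed pseudogenes made up 15.9% to 16.3% of counts in Brd and control, 18.5% to 18.6% in NM-Brdi, 22.9% in NM-DMSO library 1 and 19.3% in NM-DMSO library 2. Total counts ran from 16918182 to 24555028 per library. Summed endothelial and epithelial markers stayed under 1 CPM in every library. In these bulk samples, fewer cells of a type and less RNA per cell cannot be told apart. The median standard error of the effect difference was 0.27 on the log2 scale, and the 95% interval lay within 1.5-fold either way for 3543 genes and within 2-fold for 8962.

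The effect difference was called, at a Benjamini-Hochberg adjusted p under 0.05 in edgeR's quasi-likelihood test, for 7 genes, or 0.0411% of those tested. Both positive calls, 0.0117% of tested genes, were Ccn2 and Cdc42ep3. The 5 negative calls, 0.0293% of tested genes, were Ccn3, Sfrp2, Lum, Draxin and Gas1. An unadjusted p under 0.05 was reached by 1580 genes, 9.27% of those tested, of which 642 (3.77%) were positive and 938 (5.51%) negative. Ccn2, Ccn3, Sfrp2, Lum, Draxin and Gas1 encode secreted or cell-surface proteins, and Cdc42ep3 encodes a cytoplasmic effector of the small GTPase Cdc42. Levels are given as CPM, counts scaled for depth with TMM factors, for library 1 and then library 2 of a group.

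Ccn2 and Ccn3 belong to the CCN family of matricellular proteins, secreted factors that bind integrins and growth factors. Ccn2, also known as CTGF, lies at chr10:24595442-24598683 on the plus strand of GRCm38. Ccn2 was at 324 and 261 CPM in Brd, against 34.5 and 28.3 CPM in control, and at 52.2 and 40.4 CPM in NM-Brdi, against 44.3 and 42.4 CPM in NM-DMSO. Both Brd libraries stood far above the other 6, control was lowest, and NM-Brdi and NM-DMSO overlapped. Ccn2 rose 9.31-fold in Brd against control, with a log2 change of 3.22 (adjusted p = 0.000488). In NM-Brdi against NM-DMSO the log2 value was 0.09, with a 95% interval of -0.30 to 0.48. The effect difference of Ccn2 was 3.12 ± 0.24 (SE; 95% interval 2.56 to 3.69; edgeR adjusted p = 0.00793), the largest positive value among the called genes.

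Ccn3, also known as NOV, lies at chr15:54745702-54754039 on the plus strand. Ccn3 was at 18.8 and 19.5 CPM in Brd, against 74.8 and 71.4 CPM in control, and at 117 and 103 CPM in NM-Brdi, against 99.8 and 95.5 CPM in NM-DMSO. It was lowest in Brd, by a wide margin, and NM-Brdi was slightly above NM-DMSO without overlap. Ccn3 fell 3.81-fold in Brd against control (log2 -1.93, adjusted p = 0.000488), while its NM-Brdi value against NM-DMSO was 0.18 with a 95% interval of -0.06 to 0.41. The effect difference was -2.11 ± 0.15 (adjusted p = 0.00793). Among the other CCN genes, Ccn1 rose in both pairs, with log2 changes of 0.83 in Brd and 0.71 in NM-Brdi (adjusted p = 0.00908 and 0.0345) and an effect difference of 0.12 ± 0.17. Ccn4, a Wnt-induced member, had 0.01 in Brd and -0.12 in NM-Brdi, neither called.

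Lumican, encoded by Lum at chr10:97565128-97572703 on the plus strand, is a small leucine-rich proteoglycan that organises collagen fibrils. Lum was at 13.5 and 18.8 CPM in Brd, against 575 and 556 CPM in control, and at 169.9 and 227 CPM in NM-Brdi, against 674 and 594 CPM in NM-DMSO. Brd stood below control and NM-Brdi below NM-DMSO, with no overlap, and by far more in Brd. Lum fell 35.0-fold in Brd against control (log2 -5.13, adjusted p = 0.000178) and 3.2-fold in NM-Brdi against NM-DMSO (log2 -1.68, adjusted p = 0.00945). The effect difference was -3.45 ± 0.27 (95% interval -4.08 to -2.83; adjusted p = 0.00793). Decorin, encoded by Dcn, is the related proteoglycan that binds TGF-β. Dcn was at 16.5 and 17.3 CPM in Brd, against 262 and 267 CPM in control, and at 48.3 and 67.5 CPM in NM-Brdi, against 225 and 156 CPM in NM-DMSO. Its log2 changes were -3.97 in Brd and -1.72 in NM-Brdi, both called, and the effect difference of -2.25 ± 0.29 missed the threshold (edgeR adjusted p = 0.0555), whereas DESeq2 gave an adjusted p of 2.32e-09 and limma voom 0.000164. Of the other proteoglycans, Aspn fell in both pairs, with log2 changes of -0.91 in Brd and -1.13 in NM-Brdi, and so did Ogn, with -0.99 in Brd and -0.83 in NM-Brdi. Among 12 tested proteoglycans of this family, 8 effect differences were negative and the median was -0.16, beside 0.03 over all tested genes; it lay between -0.27 and -0.10 without any 1 library.

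Sfrp2 and Draxin encode secreted antagonists of Wnt signalling, and both were called in opposite directions in the pairs. Sfrp2 lies at chr3:83766321-83774316 on the plus strand. Sfrp2 was at 117 and 121 CPM in Brd, against 264 and 248 CPM in control, and at 277 and 260.0 CPM in NM-Brdi, against 164 and 178 CPM in NM-DMSO. Sfrp2 was thus lower in Brd than in control and higher in NM-Brdi than in NM-DMSO, with no overlap in either pair. Its log2 changes were -1.11 in Brd (adjusted p = 0.00213) and 0.65 in NM-Brdi (adjusted p = 0.0245), and the effect difference was -1.76 ± 0.14 (adjusted p = 0.00793). Draxin lies at chr4:148098437-148130698 on the minus strand. Draxin was at 18.4 and 19.5 CPM in Brd, against 39.6 and 35.9 CPM in control, and at 9.69 and 8.7 CPM in NM-Brdi, against 2.98 and 1.96 CPM in NM-DMSO. Control was highest and NM-DMSO lowest. The log2 changes were -0.99 in Brd (adjusted p = 0.0173) and 1.90 in NM-Brdi (adjusted p = 0.00828), with an effect difference of -2.89 ± 0.27 (adjusted p = 0.0213). Only 4 genes were called in opposite directions in the pairs. The others were Nek2, a centrosomal kinase, with an effect difference of -1.13 (adjusted p = 0.0555), and Gm8956, annotated as a processed pseudogene, with -1.15 (adjusted p = 0.0555).

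Gas1, at chr13:60174405-60177365 on the minus strand, encodes a membrane-anchored co-receptor for hedgehog ligands that was first described in growth-arrested cells. Gas1 was at 175 and 176 CPM in Brd, against 379.9 and 351 CPM in control, and at 317 and 324 CPM in NM-Brdi, against 285 and 293 CPM in NM-DMSO. Brd was lowest, control was highest, and NM-Brdi was above NM-DMSO. Gas1 fell by 1.06 on the log2 scale in Brd (adjusted p = 0.00213), against 0.15 in NM-Brdi (95% interval -0.06 to 0.36), and the effect difference was -1.20 ± 0.13 (adjusted p = 0.0457). Cdc42ep3, at chr17:79333727-79355091 on the minus strand, showed the reverse arrangement, with the change in the NM pair. Cdc42ep3 was at 87.7 and 84.3 CPM in Brd, against 89.5 and 83.7 CPM in control, and at 49.7 and 54.7 CPM in NM-Brdi, against 132 and 129 CPM in NM-DMSO. NM-Brdi was lowest, NM-DMSO was highest, and Brd and control overlapped. The log2 value of Cdc42ep3 was -0.01 in Brd (95% interval -0.24 to 0.22), it fell by 1.32 in NM-Brdi (adjusted p = 0.00453), and the effect difference was 1.31 ± 0.14 (adjusted p = 0.0457). Gas1 and Cdc42ep3 were no longer called with robust edgeR or with the replicate number as a block.

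**Figure D1:**
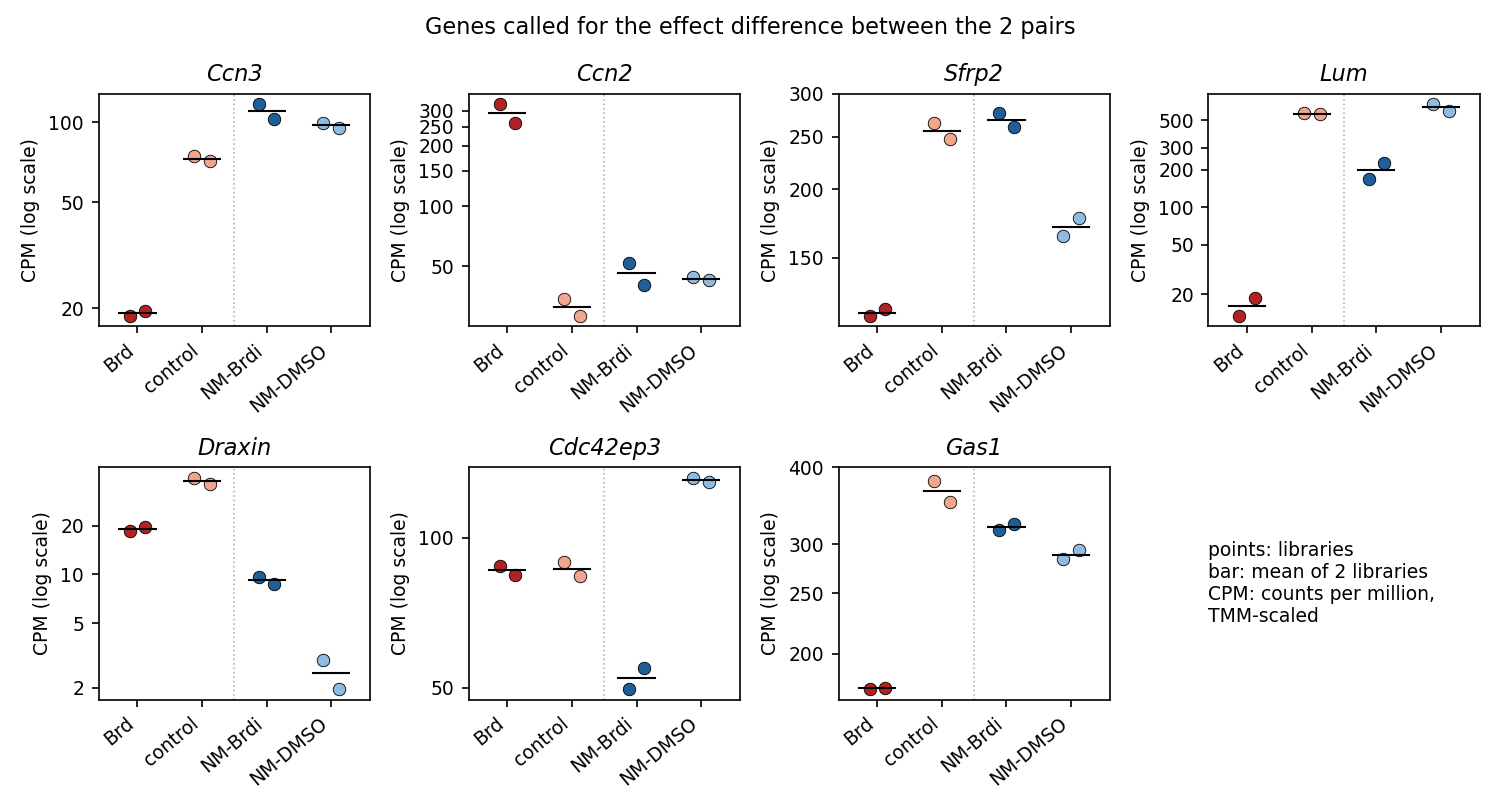
Levels in CPM on a log scale of the 7 genes called for the effect difference, in the Brd and control libraries (left of the dotted line) and the NM-Brdi and NM-DMSO libraries (right of it). Points are libraries and bars the mean of 2. Ccn2 is at 324 and 261 CPM in Brd and at 28.3 to 52.2 CPM in the other libraries.

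The number of genes called depended on which libraries entered the fit. Leaving out any 1 of the 6 Brd, control or NM-Brdi libraries left 0 genes called in edgeR, with 933 to 1135 genes at an unadjusted p under 0.05 and a lowest adjusted p between 0.0601 and 0.129. Leaving out NM-DMSO library 1 gave 1589 calls (9.04% of genes tested) and leaving out NM-DMSO library 2 gave 7458 (42.3%), and all 7 genes above were among both sets. A group reduced to 1 library is assumed in these fits to vary like the others. The values of the called genes Ccn2, Lum and Sfrp2 moved less: without any 1 library, Ccn2 lay between 2.95 and 3.32, Lum between -3.71 and -3.23, and Sfrp2 between -1.82 and -1.71. DESeq2 called 300 of 15716 genes (1.91%), and limma voom with a weight per group called 154 (0.904%). The tools shared 132 genes, 44% of the DESeq2 calls and 85.7% of the voom calls, 102 of them negative and 30 positive. The 4 library comparisons within each pair did not overlap between pairs for 4729 genes, 27.8% of those tested.

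Brd against control had 1121 calls (6.58% of tested genes), 533 higher (3.13%) and 588 lower (3.45%), and NM-Brdi against NM-DMSO had 318 (1.87%), 139 higher (0.816%) and 179 lower (1.05%). In both pairs 214 genes were called, 210 in the same direction. Of 907 genes called in Brd and not in NM-Brdi, the effect difference was called for 3, and 503 (55.5%) had an unadjusted p under 0.05. In 347 of these 907 the NM-Brdi interval lay within 1.5-fold either way. Of 104 genes called in NM-Brdi and not in Brd, the effect difference was called for 1, 65 (62.5%) had an unadjusted p under 0.05, and 36 had a Brd interval within 1.5-fold. Of the 210 genes changed in the same direction, 51 had an effect difference whose 95% interval lay within 1.5-fold. For most genes called in 1 pair the test did not separate the effects, nor did its interval show them to be alike.

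**Figure D2:**
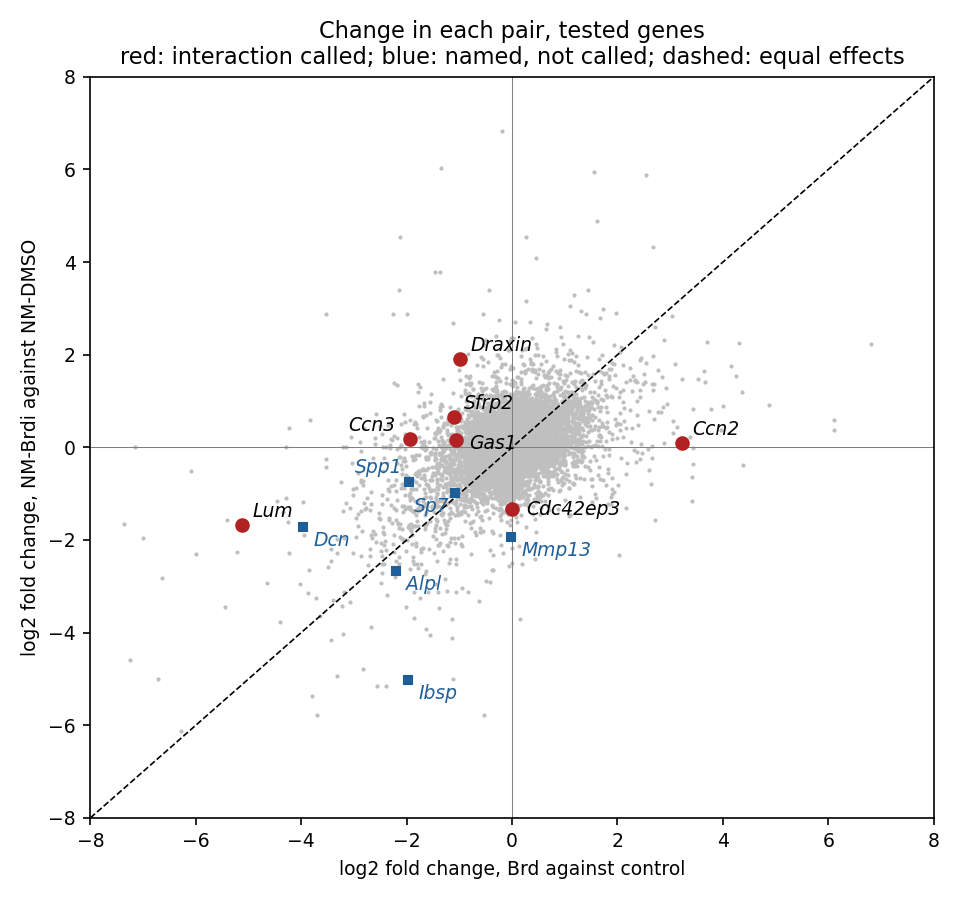
Log2 fold change of each of the 17038 tested genes in Brd against control (horizontal) and NM-Brdi against NM-DMSO (vertical); the dashed line marks equal effects. Red circles are the 7 genes called for the effect difference, and blue squares are named genes that were not called. Ccn2 lies at 3.22 and 0.09, Lum at -5.13 and -1.68, and Sp7, at -1.08 and -0.99, lies near the line.

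Of 30 mitosis genes, 19 fell in Brd against control, where 3.45% of all tested genes were called lower. None was called in NM-Brdi against NM-DMSO, where 1.87% of all tested genes were called. All 30 listed genes were tested and all 30 had a negative effect difference, as did 47.0% of all tested genes. The median was -0.86, beside 0.03 over all tested genes, and the values ran from -1.32 for Cenpf to -0.29 for Birc5. At an unadjusted p under 0.05, 27 of the 30 were negative, against 5.51% of all tested genes. None was called by edgeR, 20 were called by DESeq2 (1.91% of genes called) and 13 by limma voom (0.904%). The median log2 change was -0.65 in Brd against control. In NM-Brdi against NM-DMSO the median was 0.16, 22 values were positive, and none was called by edgeR, DESeq2 (5.83% of genes called) or voom (0.88%), while 8 were higher at an unadjusted p under 0.05 (8.94% of genes). The list median stayed between -0.80 and -0.89 over every alternative fit, leaving out each library included. Mitotic genes are switched on together in late cell cycle, and their products build the spindle, the kinetochores and the machinery of division.

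Plk1 encodes a kinase that drives spindle assembly. Plk1 was at 20.3 and 20.5 CPM in Brd, against 42.3 and 40.9 CPM in control, and at 35.3 and 39.7 CPM in NM-Brdi, against 33.0 and 34.1 CPM in NM-DMSO. Brd was lowest and control highest, and the NM groups lay close together in between. Plk1 fell by 1.03 in Brd (adjusted p = 0.00366), against 0.16 in NM-Brdi, and the effect difference was -1.19 ± 0.16 (edgeR adjusted p = 0.0555, DESeq2 2.08e-05). Cdc20, the activator of the anaphase-promoting complex, shares 53 bases of exon with Elovl1 on the opposite strand, so part of its count is uncertain. Cdc20 was at 24.4 and 24.5 CPM in Brd, against 48.7 and 52.8 CPM in control, and at 43.9 and 49.4 CPM in NM-Brdi, against 37.1 and 42.5 CPM in NM-DMSO. Brd was again lowest, below the other 6 libraries, with an effect difference of -1.28 ± 0.17 (adjusted p = 0.0569). Kif11 encodes the motor that separates the spindle poles. Kif11 was at 105 and 106 CPM in Brd, against 177 and 179.9 CPM in control, and at 175 and 182 CPM in NM-Brdi, against 153 and 166 CPM in NM-DMSO. Brd stood below the other 6 libraries, and the effect difference was -0.92 ± 0.13 (adjusted p = 0.0702). Ccna2, a cyclin of S and G2 phase, had -1.09 (adjusted p = 0.0555), but 510 bases of its exons overlap Exosc9 on the opposite strand. Mki67 and Cenpf spread widely between the NM-DMSO libraries. Mki67 was at 383 and 403 CPM in Brd, against 596 and 623 CPM in control, and at 451 and 551 CPM in NM-Brdi, against 225 and 409 CPM in NM-DMSO. NM-DMSO library 1 was the lowest of the 8 for Mki67, and its effect difference was -1.29 (adjusted p = 0.245).

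The promoters of Plk1, Cdc20 and Kif11 are shown because these genes carry the mitosis pattern with promoter entries in RefSeq (build GRCm38.p6), 250 bases before to 50 bases after the start. Capitals mark 2 motifs of cell-cycle promoters, the CHR element (TTTGAA) and the CCAAT box (CCAAT), each searched on both strands, which do not overlap one another here. Kif11 holds both in the reverse direction.
Plk1: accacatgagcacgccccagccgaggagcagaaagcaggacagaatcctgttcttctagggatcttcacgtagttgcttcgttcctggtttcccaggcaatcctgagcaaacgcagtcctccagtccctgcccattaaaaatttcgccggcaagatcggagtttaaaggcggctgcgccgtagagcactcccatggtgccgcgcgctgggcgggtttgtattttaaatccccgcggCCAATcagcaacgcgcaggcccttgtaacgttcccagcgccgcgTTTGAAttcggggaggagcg
Cdc20: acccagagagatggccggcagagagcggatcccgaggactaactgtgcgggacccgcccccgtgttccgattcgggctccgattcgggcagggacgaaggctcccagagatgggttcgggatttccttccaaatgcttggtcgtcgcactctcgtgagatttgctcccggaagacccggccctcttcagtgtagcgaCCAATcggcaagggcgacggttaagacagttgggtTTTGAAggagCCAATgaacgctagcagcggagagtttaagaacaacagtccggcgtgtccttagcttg
Kif11: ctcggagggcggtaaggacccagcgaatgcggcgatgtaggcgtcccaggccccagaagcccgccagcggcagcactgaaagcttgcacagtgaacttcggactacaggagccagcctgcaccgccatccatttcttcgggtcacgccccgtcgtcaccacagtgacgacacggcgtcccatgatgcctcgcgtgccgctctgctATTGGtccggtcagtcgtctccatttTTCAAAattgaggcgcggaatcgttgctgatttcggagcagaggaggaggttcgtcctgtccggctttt
They lie at chr7:122159185-122159484 on the plus strand for Plk1, chr4:118437294-118437593 on the minus strand for Cdc20 and chr19:37376132-37376431 on the plus strand for Kif11. Counted from the start as base 1, the CHR element begins at 31 in Plk1, at -18 in Cdc20 and at -19 in Kif11. Of the 30 mitosis genes 26 had a promoter entry. The CHR letters were in 20 of these (76.9%), against 18.1% of 27025 RefSeq promoters and 12.1% of the promoters of tested genes. The CCAAT box was in 76.9%, against 37.9% of all promoters, and both motifs were in 17 promoters (65.4%), against 7.12%. DNA replication promoters held the CHR letters in 2 of 20 (10%). A match of letters is a description of sequence and not of binding.

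**Figure D3:**
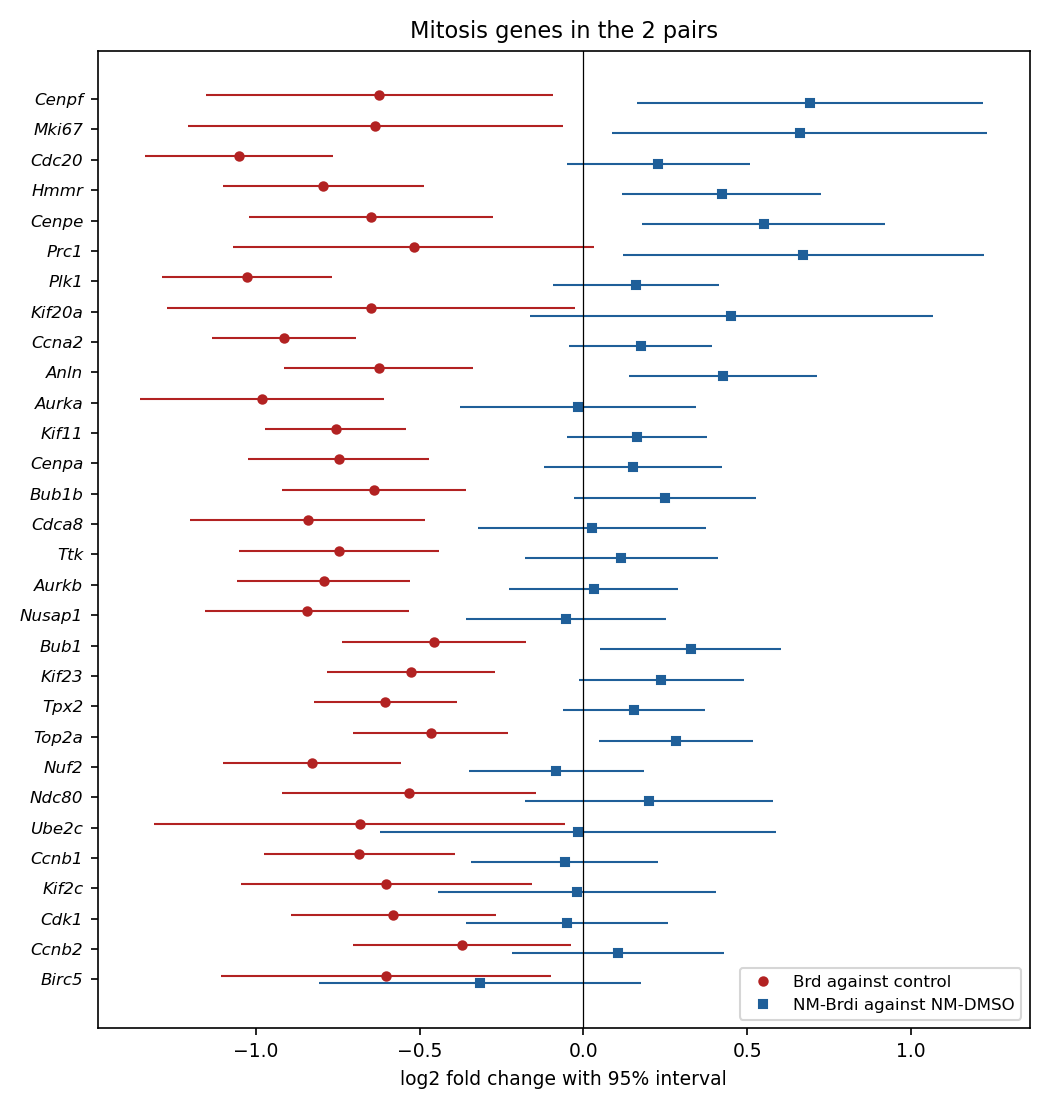
Log2 fold change with 95% interval of the 30 tested mitosis genes in Brd against control (red circles) and NM-Brdi against NM-DMSO (blue squares), ordered by effect difference. Every red point lies left of 0, and 22 of the 30 blue points lie right of it.

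DNA replication genes shared the sign of the mitosis genes at a smaller size. All 25 had a negative effect difference, with a median of -0.44 and a lowest value of -0.67. Of these, 11 had an unadjusted p under 0.05, against 5.51% of all tested genes in that direction. None was called by edgeR or limma voom, and 3 were called by DESeq2 (1.91% of genes called). In Brd against control 7 fell, beside 3.45% of all tested genes, and the median was -0.39. In NM-Brdi against NM-DMSO the median rounds to 0.00, with none called by edgeR, DESeq2 or voom and 1 higher and 1 lower at an unadjusted p under 0.05. Mcm2 and Mcm3 encode subunits of the replicative helicase. Mcm3 was at 49.9 and 50.5 CPM in Brd, against 70.9 and 72.3 CPM in control, and at 66.0 and 67.7 CPM in NM-Brdi, against 63.3 and 64.0 CPM in NM-DMSO. Mcm3 was lower in both Brd libraries than in the other 6, and its effect difference was -0.58 ± 0.13 (adjusted p = 0.145). That of Mcm2 was -0.60 (adjusted p = 0.151). Without NM-DMSO library 2 the list median was -0.26.

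Part of the bone matrix and mineralization genes fell in each pair, and most members had a positive effect difference. Of 26 listed genes 23 were tested. In Brd 6 fell, beside 3.45% of all tested genes, and in NM-Brdi 10 fell, beside 1.05%. The median log2 changes were -0.70 in Brd and -1.13 in NM-Brdi. The effect difference was positive for 20 of the 23, against 53.0% of all tested genes, with a median of 0.31. At an unadjusted p under 0.05 there were 8 positive and 1 negative, against 3.77% and 5.51% of all tested genes. None was called by edgeR, and DESeq2 (1.91% of genes called) and limma voom (0.904%) called 3 each. Over the alternative fits the median lay between 0.17 and 0.48. Summed levels of 10 chondrocyte markers, which share the skeletal lineage, were 352 to 379 CPM in Brd, 690 to 713 CPM in control, 232 to 244 CPM in NM-Brdi and 351 to 392 CPM in NM-DMSO. Acan, Col9a1 and Col10a1, which define that cell type, had under 10 counts in every library, and the part of these markers in the result was not tested.

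Ibsp encodes bone sialoprotein, which nucleates mineral. Ibsp was at 429 and 547 CPM in Brd, against 1913 and 1943 CPM in control, and at 2.49 and 6.63 CPM in NM-Brdi, against 155 and 142 CPM in NM-DMSO. Brd lay below control and NM-Brdi below NM-DMSO, without overlap, and the NM-Brdi libraries stood at a few CPM. Ibsp fell by 1.98 on the log2 scale in Brd (adjusted p = 0.013) and fell by 5.03 in NM-Brdi (adjusted p = 0.00453). The effect difference of 3.05 ± 0.47 had an edgeR adjusted p of 0.081, a DESeq2 adjusted p of 1.49e-08 and a voom adjusted p of 0.000367. Without NM-Brdi library 1 it was 2.50 and without NM-Brdi library 2 it was 3.91. Osteopontin, encoded by Spp1, is a phosphoprotein of the same gene cluster. Spp1 was at 141 and 152 CPM in Brd, against 585 and 549 CPM in control, and at 166 and 191 CPM in NM-Brdi, against 332 and 266 CPM in NM-DMSO. Brd was below control and NM-Brdi below NM-DMSO, by more in Brd. The log2 changes of Spp1 were -1.95 in Brd and -0.74 in NM-Brdi, both called, and its effect difference was -1.21 ± 0.19 (adjusted p = 0.0827), opposite in sign to that of Ibsp. Smpd3 encodes a sphingomyelinase needed for mineralization, and 247 bases of its exons overlap Prmt7 on the opposite strand. Smpd3 was at 57.8 and 65.5 CPM in Brd, against 70.5 and 74.1 CPM in control, and at 20.1 and 24.8 CPM in NM-Brdi, against 68.6 and 98.4 CPM in NM-DMSO. NM-Brdi was lowest, and the effect difference was 1.67 ± 0.26 (adjusted p = 0.085).

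Mmp13, the collagenase of late osteoblasts and hypertrophic cartilage, was not among the listed matrix genes but had 1 of the 12 smallest positive p-values that were not called. Mmp13 was at 477 and 509 CPM in Brd, against 496 and 508 CPM in control, and at 17.9 and 28.2 CPM in NM-Brdi, against 100.3 and 76.3 CPM in NM-DMSO. Brd and control overlapped at a high level, and NM-Brdi stood below NM-DMSO. The log2 value of Mmp13 was -0.03 in Brd (95% interval -0.51 to 0.46), it fell by 1.94 in NM-Brdi (adjusted p = 0.0106), and the effect difference was 1.91 ± 0.30 (adjusted p = 0.0844). Alpl encodes alkaline phosphatase. Alpl was at 13.5 and 16.7 CPM in Brd, against 69.2 and 70.7 CPM in control, and at 2.83 and 4.17 CPM in NM-Brdi, against 24.6 and 19.96 CPM in NM-DMSO. It fell in both pairs, with log2 changes of -2.21 in Brd and -2.67 in NM-Brdi (adjusted p = 0.00221 and 0.00453), with an effect difference of 0.46 and a 95% interval of -0.20 to 1.11. Bglap, osteocalcin, was near the lower end of the counts, and it is 98.9% identical to Bglap2 over 439 bases, so its count is uncertain. Bglap was at 1.77 and 1.95 CPM in Brd, against 3.29 and 2.74 CPM in control, and at 1.65 and 2.5 CPM in NM-Brdi, against 8.73 and 6.01 CPM in NM-DMSO. Its effect difference was 1.13 ± 0.43 (adjusted p = 0.467). Col1a1, the main chain of bone collagen, had an effect difference of 0.44 (95% interval 0.08 to 0.79; adjusted p = 0.4). Tnfrsf11b, the osteoclast inhibitor osteoprotegerin, fell in both pairs, with -1.42 in Brd and -1.58 in NM-Brdi, and had an effect difference of 0.16 (adjusted p = 0.764).

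**Figure D4:**
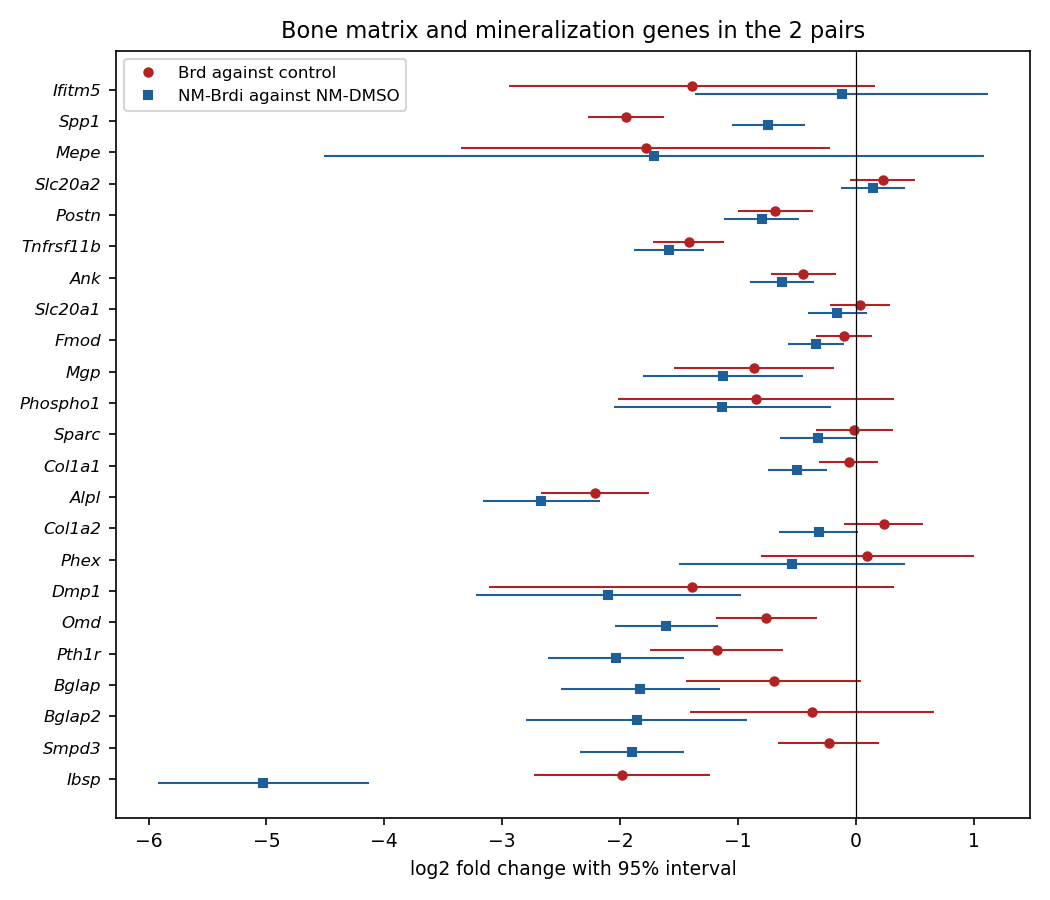
Log2 fold change with 95% interval of the 23 tested bone matrix and mineralization genes in Brd against control (red circles) and NM-Brdi against NM-DMSO (blue squares), ordered by effect difference. Ibsp lies at -1.98 in Brd and -5.03 in NM-Brdi, and Spp1 at -1.95 and -0.74.

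Neither Sp7 nor Runx2 had a called effect difference, and both fell in both pairs. Sp7 is the zinc-finger factor required for bone formation. Sp7 was at 183 and 201 CPM in Brd, against 413 and 398 CPM in control, and at 122 and 162 CPM in NM-Brdi, against 295 and 271 CPM in NM-DMSO. Both Brd libraries were below both control libraries, and both NM-Brdi libraries below both NM-DMSO libraries. Sp7 fell by 1.08 in Brd (adjusted p = 0.00698) and fell by 0.99 in NM-Brdi (adjusted p = 0.0231), and the effect difference was -0.08 with a 95% interval of -0.55 to 0.39. Runx2 is the factor upstream of Sp7. Runx2 was at 282 and 306 CPM in Brd, against 461 and 468 CPM in control, and at 204 and 250.2 CPM in NM-Brdi, against 349 and 409 CPM in NM-DMSO. Brd was again below control, and NM-Brdi below NM-DMSO. Runx2 had log2 changes of -0.66 in Brd and -0.74 in NM-Brdi, both called, with an effect difference of 0.08 (95% interval -0.35 to 0.51). Over 15 listed factors the median was 0.02 (-0.10 to 0.15 without any 1 library), with 8 positive and 7 negative, and edgeR, DESeq2 and limma voom called none, while 1 in each direction had an unadjusted p under 0.05. Brd9 itself stood at 24.0 and 24.1 CPM in Brd, against 31.1 and 29.2 CPM in control, and at 29.1 and 28.3 CPM in NM-Brdi, against 30.9 and 30.5 CPM in NM-DMSO. Its effect difference was -0.23 (95% interval -0.57 to 0.12), and neither pair was called. Among 26 subunits of BAF, PBAF and ncBAF complexes the median was -0.03, and none was called by any of the 3 tools or had an unadjusted p under 0.05.

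Genes driven by Tead factors with YAP or TAZ were split. This list was chosen with results of these data known and includes Ccn2 and Cdc42ep3. Of 21 tested members 11 effect differences were positive and 10 negative, with a median that rounds to 0.00. EdgeR called 2 of them (0.0411% of genes called), DESeq2 called 3 (1.91%) and limma voom 2 (0.904%). At an unadjusted p under 0.05 there were 3 positive and 1 negative, against 3.77% and 5.51% of all tested genes. Both pairs had a median change of 0.29. In Brd 5 rose and 1 fell, beside 3.13% and 3.45% of all tested genes. In NM-Brdi 4 rose and 1 fell, beside 0.816% and 1.05%. Ankrd1 encodes a nuclear and sarcomeric ankyrin-repeat protein induced by stretch. Ankrd1 was at 73.1 and 63.0 CPM in Brd, against 15.3 and 15.8 CPM in control, and at 29.3 and 20.3 CPM in NM-Brdi, against 18.0 and 15.7 CPM in NM-DMSO. Brd stood above the other 6 libraries. Ankrd1 rose by 2.13 on the log2 scale in Brd (adjusted p = 0.00221), against 0.56 in NM-Brdi, and the effect difference was 1.57 ± 0.26 (adjusted p = 0.0875). Amotl2, an angiomotin that binds YAP, had a log2 value of 0.31 in Brd and rose by 0.85 in NM-Brdi (adjusted p = 0.0146), and its effect difference was -0.53 (adjusted p = 0.261). Ajuba, a LIM protein of the Hippo pathway, rose by 0.58 in Brd and 0.57 in NM-Brdi. Its effect difference rounds to 0.00, with a standard error of 0.15.
The Ankrd1 promoter, chr19:36119795-36120094 on the minus strand, is shown because it holds 2 copies of the TEAD motif (GGAATG, searched on both strands), in capitals, beginning 210 and 123 bases before the start.
Ankrd1: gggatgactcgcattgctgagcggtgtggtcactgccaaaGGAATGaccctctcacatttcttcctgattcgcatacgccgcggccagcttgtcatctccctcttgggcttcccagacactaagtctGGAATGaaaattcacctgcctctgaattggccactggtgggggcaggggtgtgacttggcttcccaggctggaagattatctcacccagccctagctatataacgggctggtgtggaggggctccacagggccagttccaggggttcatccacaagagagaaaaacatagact
The motif was in 8 of the 16 list promoters found (50%), against 14.6% of all RefSeq promoters.

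Contractile and immediate early genes had mostly positive values. Smooth muscle and contractile genes encode the actin, tropomyosin and calponin of stress fibres, and 13 of 14 tested had a positive effect difference, with a median of 0.62. Of these, 7 had an unadjusted p under 0.05, against 3.77% of all tested genes in that direction. None was called by edgeR, 2 by DESeq2 (1.91% of genes called) and 3 by limma voom (0.904%). The median log2 change was 0.49 in Brd, where 3 rose, beside 3.13% of all tested genes, and -0.30 in NM-Brdi. Acta2, α-smooth muscle actin, varied between the NM-DMSO libraries. Acta2 was at 1390 and 1349 CPM in Brd, against 878 and 918 CPM in control, and at 833 and 798 CPM in NM-Brdi, against 1209 and 829 CPM in NM-DMSO. NM-DMSO library 1 was above both NM-Brdi libraries and NM-DMSO library 2 lay among them, and the effect difference was 0.93 ± 0.23 (adjusted p = 0.213). Flnc, a filamin that crosslinks actin, rose by 1.25 in Brd (adjusted p = 0.00205) against 0.37 in NM-Brdi, with an effect difference of 0.88 (adjusted p = 0.0869). Without NM-DMSO library 1 the contractile median was 0.52, and without library 2 it was 0.86.

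Immediate early genes are transcribed within minutes of a stimulus and mostly encode transcription factors. Of 24 tested, 18 were positive, with a median of 0.45. At an unadjusted p under 0.05 there were 12 positive and 1 negative, against 3.77% and 5.51% of all tested genes. None was called by edgeR or voom, and 5 were called by DESeq2 (1.91% of genes called). In Brd 6 rose and 1 fell, beside 3.13% and 3.45% of all tested genes, and in NM-Brdi 1 rose, beside 0.816%. Btg2, an antiproliferative early gene, rose by 0.90 in Brd (adjusted p = 0.00582), against -0.01 in NM-Brdi, and the effect difference was 0.90 ± 0.16 (adjusted p = 0.101). Jund had the wider gap of 1.54 (adjusted p = 0.218). Jund was at 54.4 and 48.9 CPM in Brd, against 16.7 and 15.9 CPM in control, and at 34.4 and 23.4 CPM in NM-Brdi, against 33.8 and 19.2 CPM in NM-DMSO. Brd was highest and the NM libraries overlapped. Fosl1 went the other way, at -3.52 (adjusted p = 0.081), but it had 2.92 CPM at most in any library and its exons overlap the far more abundant Ccdc85b, so its value is uncertain.

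Targets of Wnt/β-catenin gave no common direction, with 8 positive and 6 negative effect differences. Of these targets edgeR called none, DESeq2 called 3 (1.91% of genes called) and limma voom 2 (0.904%). At an unadjusted p under 0.05 there were 1 positive and 3 negative, against 3.77% and 5.51% of all tested genes. In Brd 1 rose and 6 fell, beside 3.13% and 3.45% of all tested genes. In NM-Brdi 5 fell, beside 1.05%. Of 7 tested secreted Wnt antagonists, the called Sfrp2 and Draxin among them, 5 were negative, with a median of -0.73. In that list edgeR called 2 (0.0411% of genes called), and DESeq2 (1.91%) and limma voom (0.904%) called 3 each. A stricter filter on low counts kept 5 antagonists, 2 positive and 3 negative, with a median of -0.74. The antagonist median was -1.57 without Brd library 1 and -0.35 without Brd library 2. Axin2, a feedback inhibitor and direct target of β-catenin, was measured as follows. Axin2 was at 36.0 and 40.4 CPM in Brd, against 94.5 and 98.0 CPM in control, and at 19.95 and 25.3 CPM in NM-Brdi, against 26.7 and 32.2 CPM in NM-DMSO. Axin2 fell by 1.33 in Brd (adjusted p = 0.00412), against -0.38 in NM-Brdi (adjusted p = 0.208), and the effect difference of -0.95 ± 0.21 was not called (adjusted p = 0.159). Rnf43, a ubiquitin ligase that removes Wnt receptors, gave -0.92 (adjusted p = 0.139). Wif1, a secreted Wnt binder, gave the opposite sign. Wif1 was at 56.8 and 63.1 CPM in Brd, against 100.4 and 106 CPM in control, and at 5.59 and 9.05 CPM in NM-Brdi, against 41.9 and 30.1 CPM in NM-DMSO. Brd was below control and NM-Brdi below NM-DMSO, by more in NM-Brdi, and the effect difference of Wif1 was 1.51 ± 0.33 (adjusted p = 0.144). Rspo2, which boosts Wnt signalling, had a log2 value of -0.18 in Brd and rose by 1.14 in NM-Brdi (adjusted p = 0.0198), with an effect difference of -1.32 (adjusted p = 0.0869). Ctnnb1, which encodes β-catenin, had an effect difference of -0.10 (95% interval -0.44 to 0.23). Over 14 tested targets of Wnt/β-catenin, the median effect difference was 0.23, although the median change in Brd, -0.96, was below that in NM-Brdi, -0.37; without Brd library 2 it was -0.02 and without NM-DMSO library 2 it was -0.06.

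BMP and TGF-β response genes divided evenly, 12 positive and 12 negative, with a median of -0.03. None was called by edgeR, 5 by DESeq2 (1.91% of genes called) and 1 by voom (0.904%). At an unadjusted p under 0.05 there were 7 positive and 5 negative, against 3.77% and 5.51% of all tested genes. Id1, an inhibitor of differentiation induced by BMP, had opposite values in the pairs. Id1 was at 15.3 and 15.1 CPM in Brd, against 27.8 and 26.6 CPM in control, and at 17.0 and 18.4 CPM in NM-Brdi, against 12.2 and 9.8 CPM in NM-DMSO. Brd was below control, and NM-Brdi was above NM-DMSO, both without overlap. Id1 fell by 0.84 in Brd (adjusted p = 0.0148), against 0.69 in NM-Brdi (adjusted p = 0.0613), and its effect difference was -1.53 ± 0.20 (adjusted p = 0.0555). Id4 and Smad9, further BMP-responsive genes, were also negative, at -0.79 (adjusted p = 0.107) and -0.74 (adjusted p = 0.149), and both rose in NM-Brdi, by 0.55 and 0.88.

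Further genes came close to the threshold with an edgeR adjusted p between 0.0554 and 0.0875, and all of those named in the next sentences were called by DESeq2. On the negative side, Islr, an immunoglobulin-like protein of stromal cells, fell by 1.79 in Brd against -0.50 in NM-Brdi, and its effect difference was -1.29 (adjusted p = 0.0554). Islr was at 73.8 and 73.3 CPM in Brd, against 259.8 and 249 CPM in control, and at 74.5 and 83.5 CPM in NM-Brdi, against 107 and 117 CPM in NM-DMSO. Control was highest, and Brd and NM-Brdi were lowest. Fbln5, an elastic fibre protein, had -1.23 (adjusted p = 0.0555), Bhlhe40, a circadian and hypoxic repressor, -1.36 (adjusted p = 0.0555), and Dusp14, a phosphatase of MAP kinases, -1.49 (adjusted p = 0.0554). Neurl1b, a ubiquitin ligase of Notch ligands, had -1.43 (adjusted p = 0.0555). The cell division genes Ect2 and Fignl1 had -1.04 and -1.12.

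On the positive side, Creb3l1, the factor also called OASIS that drives collagen secretion in osteoblasts, had a log2 value of 0.18 in Brd and fell by 0.95 in NM-Brdi (adjusted p = 0.00828). Creb3l1 was at 211 and 197 CPM in Brd, against 178 and 181 CPM in control, and at 68.9 and 74.3 CPM in NM-Brdi, against 144 and 132 CPM in NM-DMSO. Both NM-Brdi libraries were the lowest, and the effect difference was 1.13 ± 0.14 (adjusted p = 0.0555). Tubb3, a β-tubulin, had 1.60 (adjusted p = 0.0555), rising by 0.94 in Brd. Sema3c, a secreted guidance factor, rose by 2.60 in Brd, with 1.83 (adjusted p = 0.085). Cdh2, N-cadherin, rose by 0.77 in Brd against -0.06 in NM-Brdi, with 0.84 (adjusted p = 0.0869). Arl4d, Fam20a and Cdk5r1 had effect differences of 1.53, 1.42 and 1.33.

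Genes that were called in 1 pair and had a 95% interval within 1.5-fold in the other were ranked by fold. On the Brd side they were led by Ccn2 and Ccn3, followed by Map3k6, Plscr2 and Csrp1. Csrp1, a LIM protein of smooth muscle, rose by 1.52 in Brd (adjusted p = 0.00573), against 0.03 in NM-Brdi, and its effect difference was 1.49 (adjusted p = 0.101). Csrp1 was at 497 and 474 CPM in Brd, against 172 and 167 CPM in control, and at 244 and 190.1 CPM in NM-Brdi, against 252 and 173 CPM in NM-DMSO. Brd was highest, and the NM-Brdi libraries lay between those of NM-DMSO. Plscr2, a phospholipid scramblase, fell by 1.67 in Brd, with an effect difference of -1.80, and Map3k6, a stress kinase, fell by 1.70, with -1.76. On the NM side the list held Mmp13, Cdc42ep3, Cgref1, Cd200 and Rspo2. Cd200, a membrane glycoprotein that restrains myeloid cells, had -0.04 in Brd and fell by 1.16 in NM-Brdi, with an effect difference of 1.12 (adjusted p = 0.119). Cgref1, a calcium-binding growth regulator, had -0.10 in Brd and fell by 1.29 in NM-Brdi, with 1.19 (adjusted p = 0.191).

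At the other end, the genes called in both pairs with the smallest effect differences were Cebpa, Ajuba, Tmem97, Socs1 and Ampd2. Ampd2, an AMP deaminase, gave the tightest of these. Ampd2 was at 49.4 and 49.9 CPM in Brd, against 80.8 and 75.9 CPM in control, and at 43.5 and 45.7 CPM in NM-Brdi, against 67.2 and 72.6 CPM in NM-DMSO. Brd was below control and NM-Brdi below NM-DMSO by a like amount. Ampd2 had log2 changes of -0.66 in Brd and -0.65 in NM-Brdi, and the 95% interval of its effect difference was -0.33 to 0.31. Socs1, a brake on cytokine signalling, had -0.85 in Brd and -0.84 in NM-Brdi, with an interval of -0.50 to 0.49. Cebpa, a factor of adipocytes and myeloid cells, had -0.77 in Brd and -0.78 in NM-Brdi, with an interval of -0.47 to 0.48. Tmem97, the sigma-2 receptor, is 98.9% identical to the pseudogene Gm5809 over 529 bases, so its count is uncertain, and its interval was -0.56 to 0.58.

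The median of the cytosolic ribosomal protein genes depended on which NM-DMSO library entered. Of 28 tested, 27 effect differences were positive with a median of 0.52, 1 had an unadjusted p under 0.05, and edgeR, DESeq2 and limma voom called none. The median was 0.16 without NM-DMSO library 1 and 0.79 without library 2. Rpl8, of the large subunit, shows the spread. Rpl8 was at 229 and 227 CPM in Brd, against 212 and 229.8 CPM in control, and at 225 and 211 CPM in NM-Brdi, against 363 and 251 CPM in NM-DMSO. NM-DMSO library 1, which also had the highest pseudogene share, was far above the other 7, and the part of that share in the result was not tested. Many ribosomal protein genes have near-identical pseudogenes, so their counts are uncertain.

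The lists in this paragraph had no effect difference called by edgeR, DESeq2 or voom. Over all tested genes, 3.77% were positive and 5.51% negative at an unadjusted edgeR p under 0.05, or 9.27% in either direction. Collagen chains had 12 positive and 9 negative values and a median of 0.28, with 8 positive and 4 negative at that level. In Brd against control 5 collagen chains rose and 4 fell (6.58% of all tested genes called), and in NM-Brdi against NM-DMSO 3 fell (1.87% called). Cholesterol synthesis genes had 15 of 19 negative and a median of -0.22, with 4 at an unadjusted p under 0.05 and none called by the 3 tools; 3 fell in Brd. Hypoxia and glycolysis genes had 16 of 19 positive and a median of 0.12, with 5 rising in Brd, and ER stress genes had 13 of 18 positive and a median of 0.20; none was called by the 3 tools in either list, with 2 and 3 at an unadjusted p under 0.05. Interferon-stimulated genes had 12 of 17 negative and a median of -0.14, with 2 at an unadjusted p under 0.05 and none called by the 3 tools. Without NM-DMSO library 1 the hypoxia and glycolysis median was 0.02, with 11 of 19 positive, and the ER stress median was 0.10. Without NM-DMSO library 2 these medians were 0.25 and 0.38. The interferon median lay between -0.39 without control library 1 and -0.10 without control library 2. Glucocorticoid targets had 9 positive and 6 negative values and a median of 0.05, with none called by the 3 tools and 3 negative members at an unadjusted p under 0.05. Without NM-DMSO library 2 that median was -0.16. Tsc22d3 of this list, a leucine-zipper protein induced by dexamethasone, differed in level between the pairs. Tsc22d3 was at 951 and 1057 CPM in Brd, against 1040 and 1085 CPM in control, and at 62.5 and 71.1 CPM in NM-Brdi, against 111 and 82.7 CPM in NM-DMSO. All 4 Brd and control libraries were above all 4 NM libraries, and the effect difference was 0.45 ± 0.21 (adjusted p = 0.568).

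**Figure D5:**
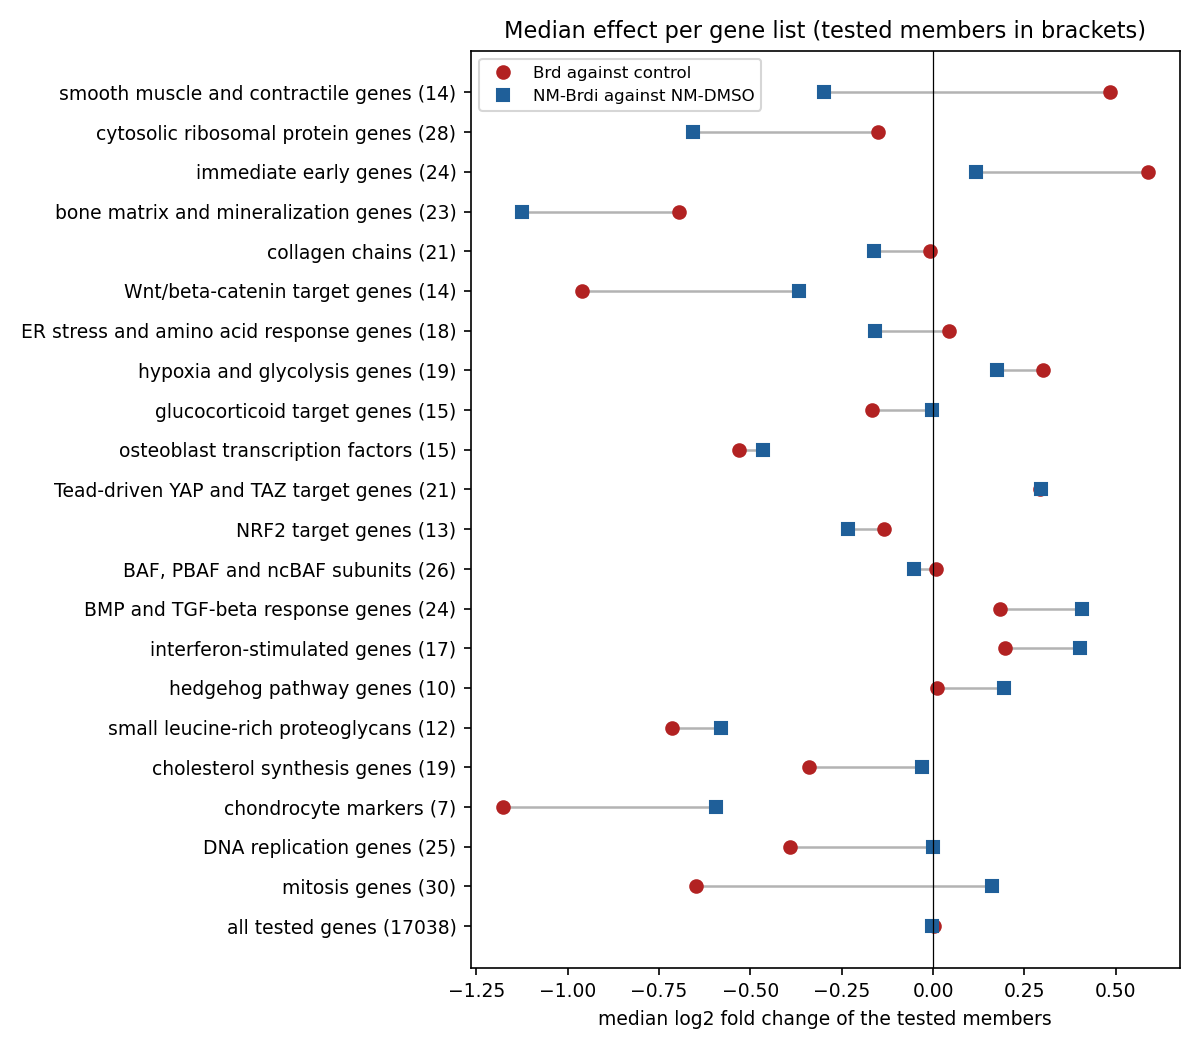
Median log2 fold change of the tested members of each drawn list in Brd against control (red circles) and NM-Brdi against NM-DMSO (blue squares). Brackets give the number tested, all tested genes are at the bottom, and lists are ordered by the median effect difference. Lists of at least 7 genes are drawn, except the 7 secreted Wnt antagonists, which had medians of -0.99 and -0.26. The mitosis list has the widest gap to the left, at -0.65 and 0.16, and the contractile list the widest to the right, at 0.49 and -0.30.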

How the data were processed

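RNA sequencing counts of 8 MC3T3-E1 libraries were used. The deposited table holds whole-number read counts per gene, made by the authors and not normalised. The submitters' processing notes name STAR 2.7.10a, featureCounts 2.0.3, FastQC 0.11.9 and Trimmomatic 0.39, and the builds GRCm38 and GRCh38. For annotation, strand setting and multi-mapped reads, nothing is given in the sources used here. Groups came from sample titles. Symbols were matched to GENCODE M21 (96.9% found). Low genes were removed with filterByExpr, counts were TMM-scaled, and a quasi-likelihood model with 1 term per group was fitted to all 8 libraries in edgeR 4.0.16. P-values were adjusted over all tested genes with the Benjamini-Hochberg method, and an adjusted p under 0.05 was called. The procedure was checked on simulated data with the same spread per gene in every group, so a group as uneven as NM-DMSO was not covered. DESeq2 1.42.0, limma 3.58.1 and other settings served as alternatives. Exon overlaps and similar transcripts were found with bedtools 2.31.1 and BLAST+ 2.17.0. Lists are described by counts and medians without a test.

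Named genes are all those called for the effect difference, up to 12 of each sign next by p with at least 10 CPM in their highest group, 10 chosen osteoblast and Wnt genes, the 4 smallest p-values of each list, genes called in opposite directions, and 5 genes per class of shared or one-sided change. A few further list members were chosen after their values were seen: Cenpf, Mki67, Birc5, Jund, Aspn, Ogn and Tnfrsf11b. The members and lists were chosen with earlier results of these data known. Same-numbered libraries were not treated as paired, since the labels do not pair them and their deviations correlated at -0.04 to 0.29. No replicate pair agreed within sampling noise.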

Additional observations from a re-analysis of the deposited data

Results flagged for a closer look

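The 7 genes with an adjusted p under 0.05 for a difference between the Brd and NM-Brdi effects in edgeR's quasi-likelihood test are listed here with that difference on the log2 scale, Brd effect minus NM-Brdi effect. The differences were 3.12 for Ccn2, 1.31 for Cdc42ep3, -1.20 for Gas1, -1.76 for Sfrp2, -2.11 for Ccn3, -2.89 for Draxin and -3.45 for Lum. DESeq2 and limma voom also called each of the 7, but robust edgeR and the fit with the replicate number as a block did not call Gas1 and Cdc42ep3, and edgeR called none of the 7 without any 1 Brd, control or NM-Brdi library. The Brd and control libraries and the NM libraries may also differ in medium, day or run, and these cannot be told apart. With 2 libraries per group, single libraries could not be tested for standing apart from their group.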

How the results depend on the processing

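The effect difference was called for 7 genes, and the same 7 were called with median-of-ratios factors, upper-quartile factors and a filter of 1 CPM in 4 libraries. It was called for 42 genes without predicted symbols, 608 without a filter on low counts, 300 by DESeq2, 154 by limma voom, and 5 by robust edgeR or with the replicate number as a block (replicate block), where Gas1 and Cdc42ep3 were no longer called; these numbers are not shown to pair the libraries. Leaving out 1 library gave 0 to 7458 genes; it gave 0 for each Brd, control or NM-Brdi library, 1589 without NM-DMSO library 1 and 7458 without NM-DMSO library 2. The 1121 calls of Brd against control became 1848 without a filter, 5875 with limma voom, 970 under the replicate block and 36 to 5539 without 1 library. The 318 calls of NM-Brdi against NM-DMSO became 513 without predicted symbols, 2453 without a filter, 917 with DESeq2, 150 with limma voom, 188 under the replicate block and 8 to 9577 without 1 library. The cause of these moves was not tested. Sign reversals among named genes occurred where the effect difference was not called in the main edgeR fit (adjusted p 0.817 or higher in that fit). For Ajuba it was -0.00352 with median-of-ratios factors, -0.00438 with upper-quartile factors, -0.00649 with predicted symbols removed, -0.00671 with no filter, -0.00357 with DESeq2. For Tmem97 it was -0.00158 with median-of-ratios factors, -0.00343 with upper-quartile factors, -0.00732 with predicted symbols removed, -0.00588 with no filter, -0.00158 with DESeq2, -0.0218 with limma voom, -0.0113 with the replicate block. For Cebpa it was -0.00471 with median-of-ratios factors, -0.00571 with upper-quartile factors, -0.00875 with predicted symbols removed, -0.00802 with no filter, -0.000755 with a stricter filter, -0.0052 with DESeq2, -0.00223 with limma voom. Leaving out 1 library turned the sign of Ccn1 (-0.00826 to 0.255), Cd68 (-0.674 to 0.0464), Ccn4 (-0.191 to 0.377), Runx2 (-0.0598 to 0.233), Sp7 (-0.275 to 0.134), Ampd2 (-0.0665 to 0.0346), Socs1 (-0.0795 to 0.0568), Ajuba (-0.0997 to 0.117), Tmem97 (-0.306 to 0.254) and Cebpa (-0.104 to 0.104). With 2 libraries per group the spread is known poorly, and the median 95% interval reached 0.627 on the log2 scale to either side. That interval is not adjusted for the number of genes, so effect differences well beyond it could also go uncalled. Gas1, at -1.20, had the smallest called effect difference in size, while Ibsp, at 3.05, was not called.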

Other observations

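Panx3, a channel of maturing osteoblasts and prehypertrophic chondrocytes, stood lower in Brd than in control, and in NM-Brdi below NM-DMSO, without overlap. Panx3 was at 41.9 and 54.0 CPM in Brd, against 160.0 and 160.4 CPM in control, and at 9.23 and 18.7 CPM in NM-Brdi, against 128 and 137 CPM in NM-DMSO. It fell by 1.74 in Brd and fell by 3.24 in NM-Brdi on the log2 scale. The 95% interval of its effect difference was 0.59 to 2.42, with an adjusted p of 0.233 in edgeR, 0.0142 in DESeq2 and 0.0331 in limma voom, and its value lay between 1.08 and 2.10 without any 1 library. Of the 7 tested chondrocyte markers the other 6 had a negative effect difference, and the list median was -0.38, beside 0.03 over all tested genes. That median was -0.16 without Brd library 1, and -0.02 without NM-Brdi library 2, where 3 were positive and 4 negative. Matn3, a cartilage matrix protein, had -1.06 (edgeR adjusted p = 0.136).

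Targets of NRF2, the factor that answers oxidative stress, divided into 6 positive and 7 negative effect differences, with a median of -0.02 (-0.12 without NM-DMSO library 1). None was called by edgeR or limma voom and 1 by DESeq2 (1.91% of genes called). At an unadjusted p under 0.05 there were 4, against 9.27% of all tested genes. Osgin1, a stress-induced growth inhibitor, fell by 1.39 in Brd and had -0.33 in NM-Brdi, with an effect difference of -1.05 (edgeR adjusted p = 0.111). Of 10 tested hedgehog pathway genes 8 were negative, among them the called Gas1, the only member with an unadjusted p under 0.05. The median was -0.16; it was -0.03 without NM-DMSO library 1, with 6 negative, and -0.40 without NM-DMSO library 2, with 9 negative. Gli1, a direct target of that pathway, had -0.42 with a 95% interval of -1.10 to 0.26, and was not called.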
